A study of Mus musculus with 9 samples.

Results

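Dermal papilla cells were compared with bulge cells over 6 of the 9 microarrays of the series. Each population was measured on 3 postnatal days, 43, 56 and 69, which the labels name early, middle and late telogen, the resting phase of the hair cycle. The arrays were chosen by their labels alone, 3 of dermal papilla and 3 of bulge. Levels of the 3 hair germ arrays of the same days are given as a reference. The hair germ arrays also entered the filter, the choice of probe set and the spread estimate. Every sample came from back skin of virgin CD1 female mice carrying the Lef1RFP and K14H2BGFP reporters, a red protein controlled by Lef1 and a green histone fusion controlled by the keratin 14 promoter, so each population is defined by reporter use and surface proteins. Papilla cells were sorted from the collagenase fraction as red cells lacking green, CD45, CD117 and integrin alpha 7, and the titles add CD34 to the excluded markers. Bulge cells were sorted from the later trypsin fraction as green cells without red, positive for CD34 and low in P-cadherin. Hair germ cells came from that trypsin fraction as green cells without red or CD34 and high in P-cadherin. The study was set up to find papilla signals that start epithelial growth and the genes they act on. The enzyme fraction and the population cannot be told apart. The labels do not say how many mice were pooled for an array, nor whether the populations of a day shared mice. With 1 array per population and day, the days act as replicates, and p-values measure the spread between these arrays.

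The dermal papilla is a cluster of specialised fibroblasts at the base of the follicle, known as a source of BMP, FGF, WNT and activin family signals to the epithelium above it. The bulge is the niche of the follicle's epithelial stem cells, which rest through most of telogen and are held in that state in part by BMP signalling. A new growth phase begins when papilla and niche signals release the germ and later the bulge cells from rest.

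Values are MAS5 signals, a probe set's brightness on a linear scale, given here as log2(signal + 16), whose lowest possible value is 4. Differences are papilla minus bulge on that scale with their standard error (SE), and they understate the change of dim genes. Each gene was read from 1 probe set, and levels of different genes are not compared. Median signals ran from 39.9 to 43.4 over the bulge arrays and from 41.4 to 48.3 over the papilla arrays. Pearson correlations across genes were 0.965 to 0.985 between bulge arrays, 0.938 to 0.956 between papilla arrays and 0.608 to 0.654 between a papilla and a bulge array, where genes are not independent replicates.

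The 3 marker genes followed the labels. Inhba, which encodes the activin beta A subunit and marks the papilla, stood at 11.78, 11.57 and 11.88 in papilla on days 43, 56 and 69 and at 4.32, 4.41 and 4.32 in bulge. Cd34, a bulge stem cell surface marker and part of the sort, stood at 5.34, 5.05 and 5.69 in papilla and 11.60, 11.77 and 11.70 in bulge. Krt15, the bulge keratin, stood at 8.13, 4.29 and 4.06 in papilla and 13.01, 13.23 and 12.96 in bulge. All 3 markers separated the populations with no overlap, as did 52.6% of all genes tested. The day 43 papilla array held far more Krt15 than the other papilla arrays. Of the other sort genes, Krt14 (-5.85) and Ptprc, which encodes CD45 (-2.82), were lower in papilla and Lef1 (3.02, and 2.14 without the day 69 papilla array) was higher. Cdh3, Kit and Itga7 were too dim to be tested. Of 19 bulge stem cell markers tested 14 were lower in papilla, 4 were not called and 1, the surface protein gene Cd200, was higher (1.15). The Cd200 call was lost without the day term or the day 43 array of either population. The summed signal of the 19 was 7127, 5242 and 7780 in papilla, 19.8%, 13.2% and 20.8% of the same-day bulge sum, against 0.839% to 2.88% for the basal keratinocyte list described next. Gas1, a member of the 19, was bright in both, at 11.40, 10.64 and 10.95 in papilla and 11.90, 12.18 and 12.15 in bulge. The share of the 19 is therefore not a measure of bulge cell RNA in papilla.

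The day 43 papilla array stood apart in its epithelial RNA. The summed signal of 13 basal keratinocyte markers was 968.2 on that array, against 302.5 and 327.5 on the later papilla arrays and 33570 to 36430 on the bulge arrays. It was therefore 2.88% of the same-day bulge sum on day 43, and 0.839% and 0.899% on days 56 and 69. Krt14, Krt17 and Sfn, members of this list, were near the lowest possible value on that array, while the members Trp63 and Perp were not. Its 3' to 5' signal ratio for Gapdh, often read as RNA degradation, was 6.62, against 3.78 to 5.09 on the other 5 arrays. The ratio for actin was 13.47, against 3.12 to 6.60. All RNA was amplified in 2 rounds, so these ratios do not measure degradation alone. In bulge, the summed signal of 10 dermal fibroblast markers was 800.1, 417 and 1131, or 3.67%, 2.45% and 6.82% of the papilla sum. Summed signals of 5 leukocyte markers were 74.02, 282.2 and 581.2 in papilla and 605.8 to 741.5 in bulge. Of the 5, 4 were lower in papilla and 1 was not called. On the papilla arrays Ptprc (4.52, 4.04 and 4.49) and Cd3g (4.29, 4.05 and 4.13) stayed near the lowest possible value. The rise of the papilla sum over the days was therefore not carried by Ptprc or Cd3g. Smooth muscle and pericyte marker sums (Acta2 and Pdgfrb) were 565.3 to 742.6 in papilla and 32.78 to 71.65 in bulge, and adipocyte marker sums (Fabp4 and Lpl) 263.9, 628.4 and 1425 in papilla and 57.7 to 122.1 in bulge. What part these RNAs had in any result was not tested. In sorted bulk samples, fewer cells of a type and less RNA per cell cannot be told apart.

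Of 7796 genes tested, 2740 (35.1%) differed between dermal papilla and bulge at an adjusted p below 0.05, 1257 (16.1%) higher in papilla and 1483 (19%) lower. These shares, and the median difference of -0.046 over all genes, are the background for each gene list. On days 43, 56 and 69 alike 2732 of the called genes kept 1 sign, and 1987 reached 2-fold, 909 higher and 1078 lower. Genes were called for a mean difference over these same days, so the shared sign follows largely from the call. A 16-fold difference was reached by 241 genes, 117 higher in papilla and 124 lower. The 3 papilla and 3 bulge values did not overlap for 4097 genes (52.6%). Genes bright only in papilla entered the test through the papilla arrays, as 293 of the 1257 higher genes did, so counts within a list describe its tested members and no others. Without the day 43 papilla array, 2386 genes were called, of which 2233 were also called with it.

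Among the largest papilla excesses were genes for retinoid handling, WNT antagonism and matrix. Crabp1, a cellular retinoic acid binding protein, stood at 13.25, 12.98 and 12.91 in papilla and at 4.67, 4.82 and 4.71 in bulge, a difference of 8.31 ± 0.37 (SE, n = 3 days, adjusted p = 5.76e-08). Dkk2, a secreted modulator of WNT signalling, stood at 12.22, 12.53 and 12.27 in papilla and at 4.12, 4.15 and 4.66 in bulge, a difference of 8.03 ± 0.38 (adjusted p = 7.82e-08). Both genes were near the lower limit in every bulge array, and hair germ stood at 5.20 ± 1.02 and 5.85 ± 1.23 (mean ± SD of 3 arrays). The matrix protein gene Spon1 differed by 7.57 ± 0.24, from 11.95, 11.82 and 12.31 in papilla to 4.71, 4.08 and 4.57 in bulge. Inhba differed by 7.39 ± 0.25, or 168-fold on this scale (adjusted p = 1.85e-08). Bmp4, a ligand known to keep bulge cells at rest, stood at 12.13, 12.02 and 12.20 against 5.31, 4.88 and 5.11, a difference of 7.01 ± 0.24. The remaining 7 of the 12 largest were the WNT deacylase Notum (6.94), the collagen VI chain Col6a3 (6.92), the procollagen processing enhancer Pcolce (6.83), dermatopontin Dpt (6.79), the fibroblast surface protease Fap (6.67), the natriuretic peptide receptor Npr2 (6.58) and the proteoglycan versican, Vcan (6.45). In none of these 12 genes did a papilla and a bulge array overlap, which follows from picking the largest differences. Over all genes tested, 52.6% did not overlap.

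The 12 largest bulge excesses included the keratins Krt15, Krt6a and Krt5 and the anchorage genes Col17a1 and Lamb3. Krt15 differed by -7.57 ± 0.67 (adjusted p = 6.03e-06), and by -8.86 without the day 43 papilla array, -6.97 and -6.89 without that of day 56 or 69, and -8.31 without the day 43 bulge array. Serpinb5, an epithelial serpin also known as maspin, stood at 5.20, 4.54 and 4.05 in papilla and at 11.85, 11.85 and 11.89 in bulge, a difference of -7.27 ± 0.30. Col17a1, a hemidesmosomal collagen needed for stem cell anchorage, stood at 6.27, 5.06 and 4.15 in papilla and at 12.22, 12.40 and 12.34 in bulge, a difference of -7.16 ± 0.39 (-7.70 without the day 43 papilla array). Bulge arrays lay close together for all 3 genes and papilla arrays were spread more widely. No papilla array reached a bulge array, which again follows from picking the largest differences. The other 9 of the 12 were the secreted epidermal protein gene Dmkn (-7.07), Krt6a (-6.64, and -7.29 without the day 43 bulge array), the epithelial laminin chain Lamb3 (-6.60), sciellin, Scel (-6.54), the keratinocyte kinase Ripk4 (-6.52), Krt5 (-6.44), Moxd1 (-6.40), the growth factor pleiotrophin, Ptn (-6.34), and Pof1b (-6.22). Hair germ means were above 9 on this scale for all 12, as in Krt15 (13.10 ± 0.18) and Serpinb5 (11.72 ± 0.45), whereas Cd34 was low there (4.70 ± 0.89).

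Promoter windows, 250 bases before to 50 after the gene start in RefSeq (GRCm38.p6), were found for 9 of the 12 leading papilla genes and 9 of the 12 leading bulge genes. Those of Spon1, Notum, Fap, Krt15, Krt6a and Ripk4 were not in the table used. The TATA box TATAAA was in 3 of the 9 papilla windows, 1 of the 9 bulge windows and 14.2% of 27025 windows of all genes, searched on both strands. The AP-1 site TGANTCA, which reads the same on both strands, was in 0 of 9 papilla windows, 3 of 9 bulge windows (Serpinb5, Dmkn and Scel) and 7.93% of all windows. The CCAAT box CCAAT was in 2 and 4 of the 9 windows and 37.9% of all, and the GC box GGGCGG in 5 and 3 and 35.9% of all. With 9 windows a side these counts are descriptions. Inhba and Dkk2 are printed as leading papilla genes with a TATA match and Serpinb5 and Scel as leading bulge genes with an AP-1 match, 5' to 3' on the gene's strand, with the TATAAA or TGANTCA match in capitals.

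Inhba, chr13:16011601-16011900, plus strand: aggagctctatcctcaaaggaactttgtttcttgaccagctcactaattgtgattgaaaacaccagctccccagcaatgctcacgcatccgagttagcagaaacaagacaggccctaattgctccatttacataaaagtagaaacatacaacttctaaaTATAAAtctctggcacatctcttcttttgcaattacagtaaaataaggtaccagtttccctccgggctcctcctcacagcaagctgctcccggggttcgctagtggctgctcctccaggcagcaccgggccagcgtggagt

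Dkk2, chr3:132085042-132085341, plus strand: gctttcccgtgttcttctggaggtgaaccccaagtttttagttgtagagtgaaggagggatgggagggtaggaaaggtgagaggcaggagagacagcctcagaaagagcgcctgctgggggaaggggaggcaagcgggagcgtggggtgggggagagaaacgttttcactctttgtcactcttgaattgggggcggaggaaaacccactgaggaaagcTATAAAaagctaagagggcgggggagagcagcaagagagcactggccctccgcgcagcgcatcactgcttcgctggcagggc

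Serpinb5, chr1:106860925-106861224, plus strand: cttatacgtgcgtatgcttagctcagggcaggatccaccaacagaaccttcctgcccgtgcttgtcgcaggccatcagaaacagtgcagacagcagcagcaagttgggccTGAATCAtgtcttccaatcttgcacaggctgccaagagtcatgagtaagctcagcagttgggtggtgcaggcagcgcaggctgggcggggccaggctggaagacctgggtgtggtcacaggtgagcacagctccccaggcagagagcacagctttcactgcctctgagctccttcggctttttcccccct

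Scel, chr14:103513091-103513390, plus strand: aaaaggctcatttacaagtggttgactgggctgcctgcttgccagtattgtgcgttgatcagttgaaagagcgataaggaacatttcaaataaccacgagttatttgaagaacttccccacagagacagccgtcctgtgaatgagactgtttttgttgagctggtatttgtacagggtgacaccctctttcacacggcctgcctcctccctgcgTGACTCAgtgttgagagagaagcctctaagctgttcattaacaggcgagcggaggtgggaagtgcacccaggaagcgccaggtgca

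**Figure D1:**
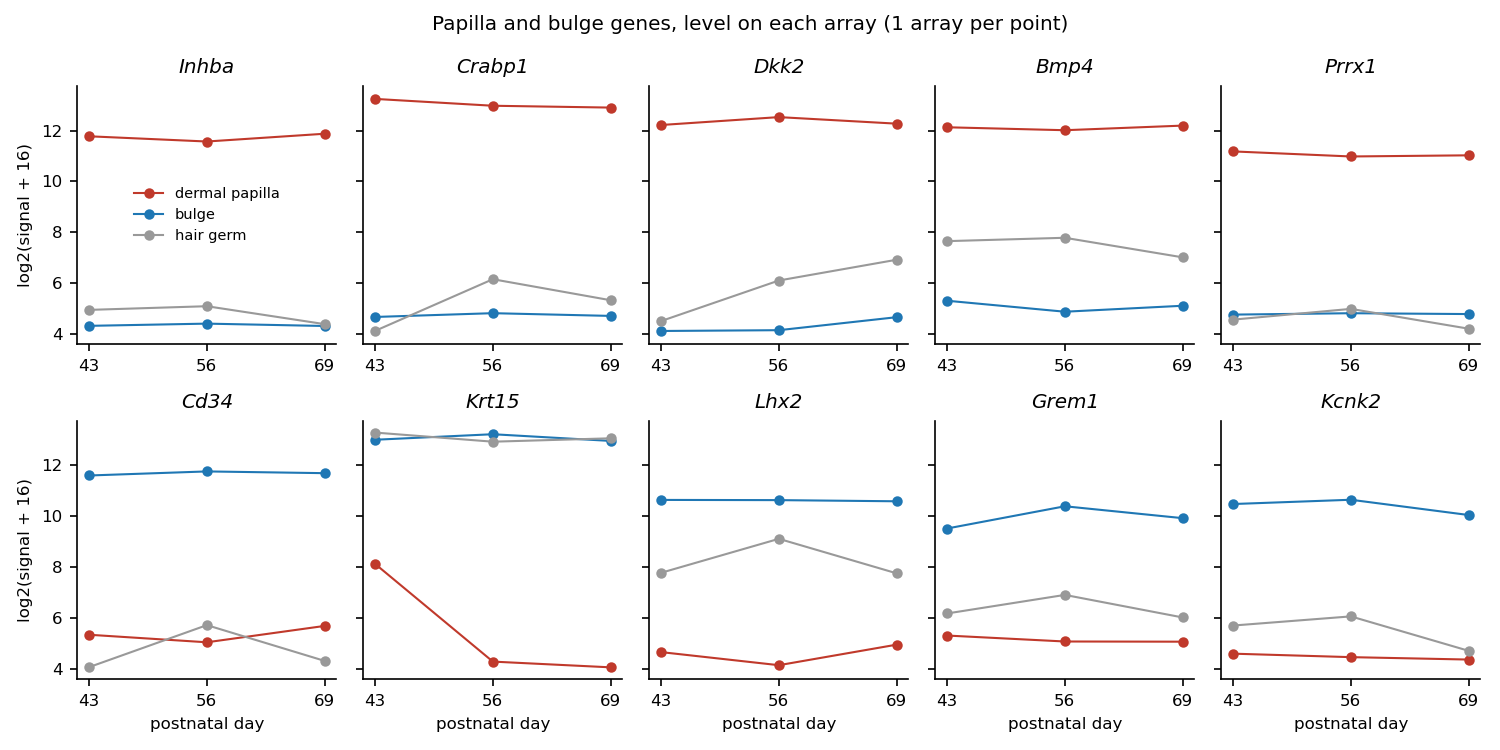
Level of 10 genes, as log2(signal + 16), on each of the 9 arrays by postnatal day, with dermal papilla in red, bulge in blue and hair germ in grey; 1 point is 1 array. Papilla and bulge do not overlap in any panel, nor in 52.6% of all genes tested. Krt15 on the day 43 papilla array (8.13) lies between the later papilla arrays and the bulge.

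Nearly all tested mesenchymal transcription factors were higher in papilla. Of 31 listed, 17 were tested, of which 16 were higher in papilla and 1 was lower, with a median difference of 3.81. Prrx1, a homeobox factor of limb and skin mesenchyme, stood at 11.18, 10.98 and 11.03 in papilla and at 4.77, 4.82 and 4.79 in bulge, a difference of 6.27 ± 0.25. The basic helix-loop-helix factor Twist1 (6.27), the zinc finger factor Zeb2 (5.88), Ebf1 (5.58), Prrx2 (4.39) and Tbx15 (4.33) followed. Prrx1, Twist1, Ebf1, Prrx2 and Tbx15 were above the array median in papilla arrays only, so they were tested because papilla was high. Of 303 genes tested by that route 293 were called higher, so the list count follows at least partly from the filter. Sox2, a marker of papillae of certain hair types, stood at 7.91, 7.51 and 9.31 against 4.02, 4.19 and 4.38, and was highest in papilla on day 69, without which its difference was 3.41 in place of 4.05. Snai2, an epithelial-mesenchymal transition factor on the same list, was the 1 member lower in papilla (-1.68 ± 0.28, adjusted p = 0.000761), with papilla at 7.20, 6.64 and 7.29 and bulge at 8.56, 8.19 and 9.41. Of 17 tested papilla markers 15 were higher in papilla, with a median of 4.7. Inhba and Vcan among them were likewise above the array median in papilla arrays only. The other two were the Notch target Hey1 (-0.84 ± 0.44, adjusted p = 0.173) and Sostdc1, an inhibitor of BMP and WNT (-1.61 ± 0.60, adjusted p = 0.0577). Sostdc1 climbed over the papilla arrays, 8.05, 9.41 and 11.37, and was level in bulge, 11.27, 11.14 and 11.25. Without the day 69 papilla array both were lower in papilla, by a difference of -1.54 for Hey1 and -2.59 for Sostdc1, and Sostdc1 also under median centring, in the 6 papilla and bulge arrays alone and without the day 43 or day 69 hair germ array.

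Epithelial transcription factors showed the opposite pattern with more exceptions. Of 19 tested, 13 were lower in papilla, 2 were higher and 4 were not called, with a median of -3.58. Lhx2, a stem cell LIM homeobox factor, stood at 4.66, 4.15 and 4.95 in papilla and at 10.64, 10.64 and 10.59 in bulge, a difference of -6.04 ± 0.36. Foxc1 (-5.55), which helps keep bulge cells quiescent, Nfib (-5.09), Trp63 (-5.18, with -6.13 and -4.24 without the day 43 or day 69 papilla array), Sox9 (-5.07) and Tfap2b (-4.74) were also lower. Nfatc1, a bulge factor that restrains division, stood at 6.84, 6.22 and 6.15 in papilla and 10.43, 10.57 and 9.78 in bulge. Tfap2c, listed as epithelial, was higher in papilla, at 11.21, 10.52 and 10.83 against 8.55, 8.06 and 7.74 (2.74 ± 0.27, adjusted p = 1.24e-05). Tfap2a was higher by 0.65 ± 0.19 (adjusted p = 0.0238). The Tfap2a call was lost under median centring and when any 1 papilla array or the day 43 or 69 bulge array was left out. The TCF factor Tcf7l1, often named as a bulge marker, stood at 8.33, 8.60 and 9.04 in papilla and 8.58, 8.02 and 8.75 in bulge, a difference of 0.21 with a 95% confidence interval of -0.36 to 0.78. Klf4 stood at 12.71, 12.03 and 12.15 in papilla and 12.21, 12.18 and 12.18 in bulge, with an interval of -0.48 to 0.69.

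Cell contacts followed the same division. Of 14 tested keratins 12 were lower in papilla, and of 17 desmosome and hemidesmosome genes 15 were, with medians of -3.13 and -2.84; none was higher. The plakin gene Dst stood at 6.33, 5.42 and 5.09 in papilla and 11.49, 11.85 and 12.13 in bulge, and desmoplakin, Dsp, at 7.25, 6.23 and 6.15 and 12.22, 12.08 and 12.12. Plec, which encodes the cytolinker plectin, was bright in both, at 11.69, 10.69 and 10.83 in papilla and 11.15, 11.55 and 10.67 in bulge, with a difference of -0.05 (interval -0.69 to 0.59). Of 16 cadherins, claudins and other junction genes, 7 were higher in papilla and 8 lower. The mesenchymal cadherin gene Cdh11 (5.22), Ncam1 (5.61), Nectin3 (4.55) and Cdh2 (2.81) were higher in papilla. Cdh1 (-5.99), Epcam (-5.06), the tight junction receptor F11r (-4.85), Cldn1 (-4.26) and Nectin4 (-3.90) were lower.

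**Figure D2:**
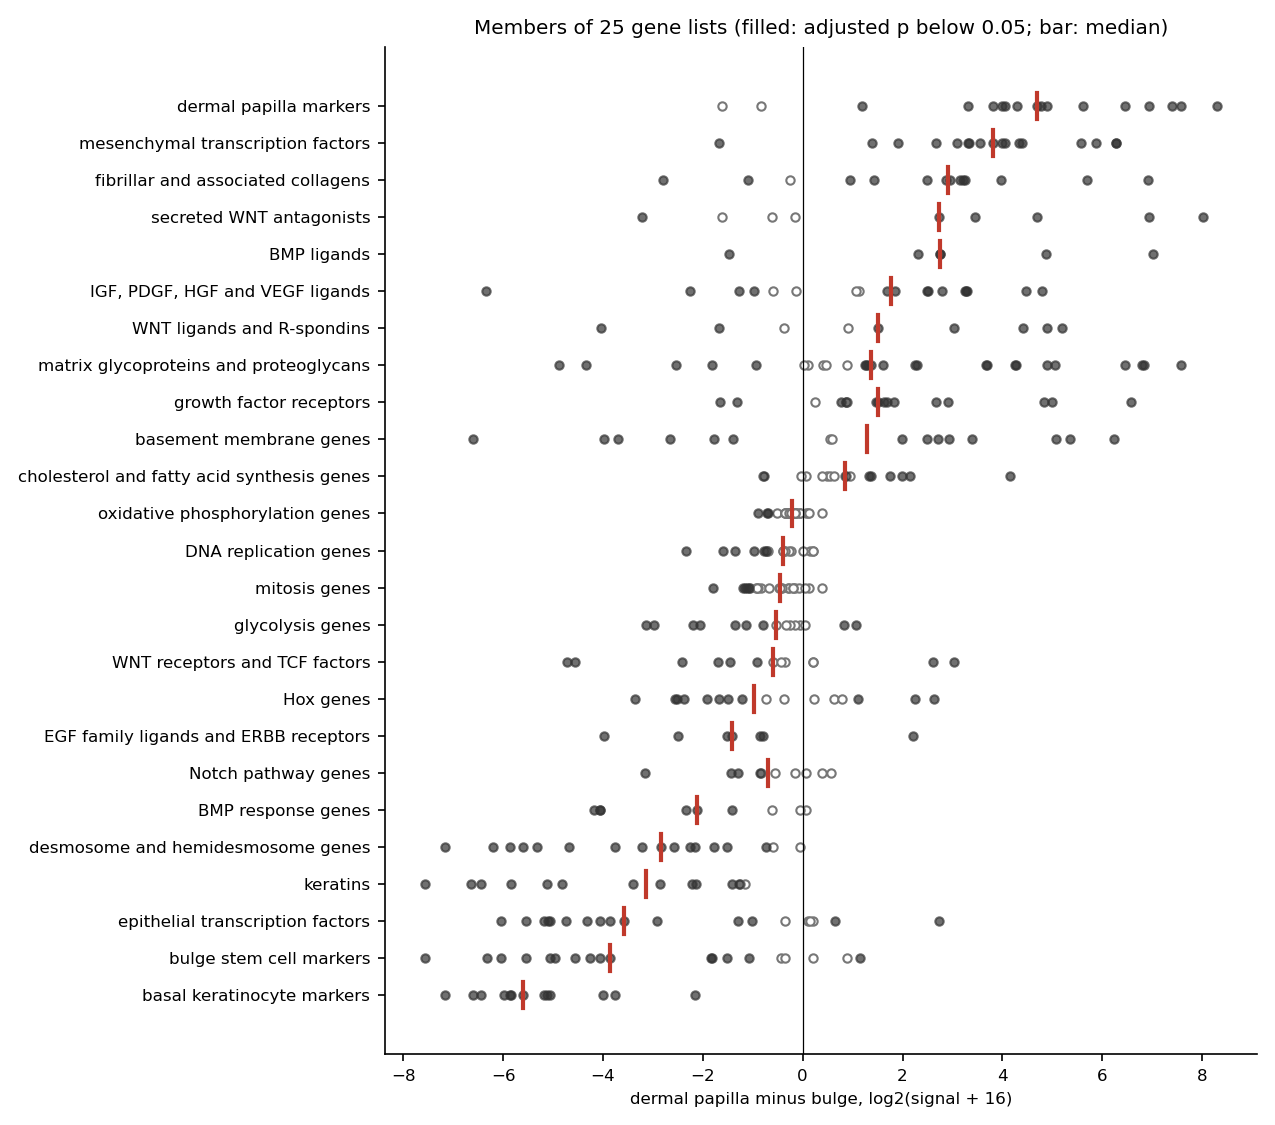
Difference between dermal papilla and bulge, in log2(signal + 16), for each tested member of 25 gene lists; filled points passed an adjusted p below 0.05, open points did not, and red bars are list medians. Papilla markers (median 4.7) and mesenchymal factors (3.81) lie at the right, basal keratinocyte markers (-5.6) at the left, and the oxidative phosphorylation list clusters near 0 (-0.216).

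Most genes tested on the BMP ligand list were higher in papilla. Of 6 tested, 5 were higher in papilla, with a list median of 2.75. Bmp1, which is not a ligand, is among the 5 and enters that median. Gdf10 stood at 11.54, 11.75 and 11.22 in papilla and 7.11, 7.17 and 5.62 in bulge (4.87 ± 0.39), Bmp7 differed by 2.76 ± 0.28, Bmp2 by 2.30 ± 0.36 and the procollagen protease Bmp1, a BMP in name only, by 2.75 ± 0.24. Bmp6, known as a quiescence signal made by the bulge itself, was lower in papilla, with a difference of -1.48 ± 0.43 (adjusted p = 0.0206), but without the day 43 papilla array the difference was -1.05 and adjusted p was 0.109. Without the day 69 papilla array the difference was -2.18. The call was also lost without the day 56 papilla array or either earlier bulge array, and with an offset of 1. Its papilla values were 5.90, 5.93 and 7.82 and its bulge values 8.03, 8.13 and 7.92.

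BMP antagonist genes were split between the populations, and BMP response genes were lower in papilla. Gremlin, Grem1, a secreted BMP antagonist, stood at 5.31, 5.08 and 5.07 in papilla and 9.52, 10.39 and 9.93 in bulge, a difference of -4.79 ± 0.27. Follistatin, Fst, which binds activin and BMPs, differed by -3.54 ± 0.38, with papilla at 5.72, 5.01 and 7.51 and bulge at 9.52, 9.36 and 9.96, and by -4.15 without the day 69 papilla array. Of 10 antagonists tested, these 2 were lower in papilla, 3 were higher (Bambi 2.61, Fstl1 2.39 and Chrd 1.88) and 5 were not called. The call of Chrd was lost without the day 56 bulge array, and the number lower was 4 without the day 69 papilla array. Of 9 BMP response genes, 6 were lower in papilla and none higher, with a median of -2.12. The inhibitor of DNA binding genes Id4 (-4.19), Id2 (-4.06), Id3 (-2.34) and Id1 (-2.12), all classic BMP targets, were among the 6. Id2 was level over the bulge arrays, from 11.99 to 12.01, and stood at 7.56, 7.27 and 8.97 in papilla, with no overlap and a difference of -4.66 without the day 69 array. The targets Msx1 and Msx2 were not called, at -0.62 and 0.06.

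The genes of both activin beta subunits were higher in papilla, and those of 2 activin receptors, Acvr2a and Acvr1b, were lower there. Inhbb, the activin beta B subunit, stood at 10.49, 8.26 and 8.59 in papilla and 6.62, 5.97 and 7.43 in bulge (2.44 ± 0.52, adjusted p = 0.00342). The Inhbb difference was 1.70 without the day 43 papilla array (adjusted p = 0.0126) and 3.05 without the day 69 bulge array. Tgfb2 differed by 1.61 ± 0.26. The receptor genes Acvr2a (-2.40 ± 0.20) and Acvr1b (-2.14 ± 0.20) were lower in papilla, at 7.04, 6.71 and 7.25 against 9.38, 9.40 and 9.41 for Acvr2a. Tgfbr2 (2.37), the co-receptor endoglin, Eng (1.76), and Acvr1 (1.39), which serves BMP and activin ligands, were higher in papilla. Of 10 receptors of this family 4 were higher, 2 lower and 4 not called. Tgfbi, a matrix protein gene induced by TGF-beta, was lower in papilla (-5.01 ± 0.39, and -4.36 without the day 56 papilla array), and the binding proteins Ltbp1 (2.70) and Ltbp2 (-1.84) were split.

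WNT ligands, their potentiators and their antagonists were all found among the papilla genes. Of 9 ligands and R-spondins tested, 5 were higher in papilla, 2 lower and 2 not called. Rspo2, an R-spondin that amplifies WNT signals, stood at 8.57, 9.65 and 10.19 in papilla and 4.69, 4.06 and 4.06 in bulge, a difference of 5.20 ± 0.40. Rspo1 differed by 4.90 ± 0.34, Wnt5a by 4.42 ± 0.44 (3.71 without the day 69 papilla array), Wnt6 by 3.03 ± 0.27 and Wnt10a by 1.51 ± 0.24. Wnt4 (-4.04 ± 0.38) and Wnt7b (-1.68 ± 0.34) were lower in papilla, with Wnt4 at 4.32, 5.36 and 4.31 against 8.99, 8.82 and 8.31. Of 9 secreted antagonists 5 were higher in papilla. Besides Dkk2 and Notum these were the WNT inhibitory factor Wif1 (4.70), Frzb (3.45) and Sfrp2 (2.74). Dkk3 was lower in papilla, 6.15, 6.29 and 6.24 against 8.93, 9.17 and 10.26 (-3.23 ± 0.30). Of 13 receptors and TCF factors 6 were lower in papilla and 2 higher. The receptors Fzd6 (-4.72), Fzd7 (-2.42) and Fzd2 (-1.71) and the R-spondin receptor Lgr5 (-4.57), a stem cell marker, were lower. Lgr5 stood at 4.47, 5.26 and 5.24 in papilla and 9.51, 9.72 and 9.44 in bulge. The higher members were the non-canonical receptor Ror2 (2.61) and Lef1, which is under the sorted reporter.

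Growth factor genes were also divided by source. Fgf7, a papilla factor acting on keratinocytes, stood at 7.97, 9.23 and 9.89 in papilla and 5.15, 4.30 and 4.78 in bulge, a difference of 4.29 ± 0.39. Fgf18, known as a quiescence factor of the resting follicle, stood at 9.14, 5.11 and 5.55 in papilla and 11.11, 11.31 and 10.19 in bulge, a difference of -4.27 ± 0.67 that was -5.47 without the day 43 papilla array, -3.44 without that of day 56 and -3.65 without the day 56 bulge array. Of other genes named in the FGF family, which need not all encode secreted factors, Fgf13 (3.02) was higher in papilla and Fgf1 (-2.68) lower. The receptor Fgfr1 (2.20 ± 0.37) was higher in papilla and Fgfr3 (-1.62 ± 0.22) lower, while the interval for Fgfr2 was -0.13 to 0.82. Of 18 genes of the IGF, PDGF, HGF, VEGF and related ligand list, 10 were higher in papilla and 4 lower. Mdk (4.79), Igf1 (4.47), Pdgfc (3.29), Vegfc (3.28) and Igf2 (3.26) were higher in papilla. Pdgfa, an epithelial ligand, was lower (-2.26 ± 0.23), and its receptor gene Pdgfra was 32.1-fold higher on this scale, at 10.51, 9.47 and 10.42 in papilla and 4.83, 5.15 and 5.41 in bulge. Of 17 growth factor receptors and co-receptors 12 were higher in papilla.

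In the EGF family the receptor genes Egfr and Erbb3 were lower in papilla. Egfr stood at 7.50, 6.96 and 6.79 in papilla and 9.37, 9.69 and 9.65 in bulge (-2.49 ± 0.30), and Erbb3 at 5.63, 5.32 and 5.36 and 9.35, 9.35 and 9.58 (-3.99 ± 0.26). The feedback inhibitor Errfi1 was higher in papilla (2.22 ± 0.29), with papilla at 11.44, 11.21 and 12.27 and bulge at 8.51, 8.71 and 11.05. Of 7 members tested 6 were lower, a count that was 3 without the day 43 bulge array, and 3 without the day 56 papilla array. In the Notch list 4 of 10 were lower and none higher, led by the ligand Jag2 (-3.16 ± 0.27), and the number lower was 2 without the day 56 papilla array. Of 8 Hedgehog pathway genes, 2 were higher and 2 lower. The targets Gli1 (1.57 ± 0.47) and Hhip (1.45 ± 0.46) were the higher ones, and neither was called without the day 69 papilla array, the day 56 bulge array or the day 69 bulge array.

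Most collagen and matrix genes tested were higher in papilla. Of 14 fibrillar and associated collagens 11 were higher in papilla and 2 lower, with a median of 2.9. Col3a1 stood at 13.11, 12.47 and 12.47 in papilla and 7.63, 5.15 and 8.20 in bulge (5.69 ± 0.65). Its bulge value was lowest on day 56, as was the bulge sum of the fibroblast markers, of which it is 1. The Col3a1 difference was 4.61 without that array and 6.33 without the day 69 bulge array. Col18a1 was lower in papilla (-2.80 ± 0.32), as was Col8a1 (-1.09 ± 0.37, adjusted p = 0.039), at 5.85, 5.11 and 4.08 against 6.41, 5.73 and 6.17 with overlapping values. The Col8a1 call was lost without the day term, with an offset of 1, with no filter, and without any 1 bulge array or either later papilla array. Of 27 glycoproteins and proteoglycans 17 were higher in papilla, among them the cross-linking enzyme Loxl1 (5.05), biglycan, Bgn (4.90, and 4.25 without the day 56 bulge array), and Emilin1 (4.26). The 5 lower ones included Egfl6 (-4.88) and nephronectin, Npnt (-4.35), matrix proteins that bulge cells are known to lay down, and fibronectin, Fn1 (-2.55, with -1.88 and -3.34 without the day 56 or day 69 papilla array).

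Basement membrane genes split by chain. Of 16 tested, 8 were higher in papilla and 6 lower. The laminin chain Lama2 stood at 10.87, 10.88 and 11.10 in papilla and 4.93, 4.26 and 4.94 in bulge, a difference of 6.24 ± 0.32, while Lama3, a chain of an epithelial laminin, stood at 5.46, 5.38 and 5.39 and 8.84, 9.04 and 9.43, a difference of -3.70 ± 0.24. Lamb1 was higher in papilla (5.07 ± 0.34) and Lamb3 lower (-6.60 ± 0.28). The collagen IV chains Col4a1 (3.38) and Col4a2 (2.72) were higher in papilla, and Col4a5 (-3.98) and Col4a6 (-2.65) lower. The nidogens Nid1 (5.35) and Nid2 (2.50), which link laminin to collagen IV, were both higher in papilla. The hemidesmosome integrin Itgb4 was lower in papilla (-3.77 ± 0.30).

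This kind of split was common among 26 pairs of related genes listed for the purpose. Both genes were tested in 22 pairs, and in 11 of these 1 gene was higher and the other lower in papilla. The midkine family gave Mdk at 8.93, 9.93 and 11.01 in papilla and 5.34, 5.04 and 5.11 in bulge (4.79 ± 0.36), against Ptn at 5.23, 4.55 and 5.28 and 11.43, 11.20 and 11.44 (-6.34 ± 0.28). The Dickkopf pair Dkk2 and Dkk3, the ligands Bmp4 and Bmp6, Wnt5a and Wnt4, and Fgf7 and Fgf18, the cadherins Cdh11 and Cdh1, and the latent TGF-beta binding proteins were the other signalling and adhesion pairs. The 4 remaining pairs were laminin and collagen IV chains. Pairs with both genes higher in papilla included Twist1 (6.27) and Twist2 (3.09), and Meis2 (3.33) and Meis1 (1.40). The pairs were chosen with results of these data known, so the count is a description.

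**Figure D3:**
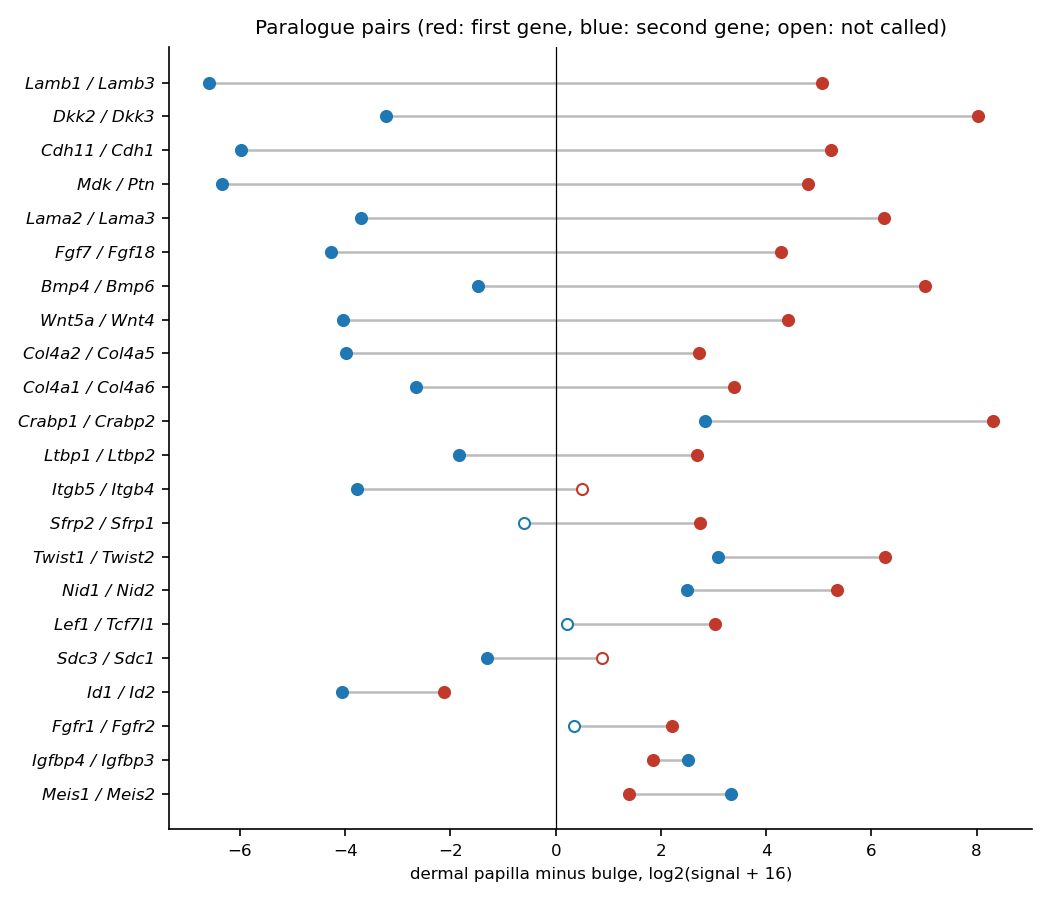
Difference between dermal papilla and bulge, in log2(signal + 16), for both genes of the 22 pairs in which both were tested; red is the first gene named, blue the second, and open circles did not pass an adjusted p below 0.05. In 11 pairs filled circles lie on opposite sides of 0, from Lamb1 (5.07) and Lamb3 (-6.60) to Ltbp1 (2.70) and Ltbp2 (-1.84).

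Few of the mitosis genes tested were called between papilla and bulge. Of 24 tested 20.8% were called, below the 35.1% of all genes, and all 5 calls were lower in papilla, a share near the 19% of all genes. The median difference was -0.459. The median level was 4.72 in papilla and 5.18 in bulge, but 15 of the 24 lay below the array median on every papilla and bulge array. Those 15 entered the test only because hair germ was high. Their low level here and the hair germ median of 7.64 follow from the filter and are no result. Dim genes can show little difference, so the low share called and the intervals below follow at least partly from the filter too. Mki67, the proliferation marker, stood at 4.43, 4.54 and 5.83 in papilla, 7.05, 6.40 and 6.75 in bulge and 10.84 ± 0.76 in hair germ (mean ± SD of 3 arrays). Papilla lay below bulge on every day (-1.80 ± 0.37, adjusted p = 0.00296). The 4 other calls were Prc1 (-1.20), Kif23 (-1.15), Cdc20 (-1.11) and Top2a (-1.08), which act in chromosome segregation and cytokinesis. The number called was 2 without the day 43 papilla array, 2 without the day 43 bulge array, 3 without either later bulge array, 8 without the day 69 hair germ array and 9 with an offset of 1. For 9 of the 24, Plk1 (interval -0.23 to 0.99), Aurka (-0.58 to 0.82) and Ube2c (-0.68 to 0.78) among them, the 95% interval lay within 1 unit of 0.

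DNA replication genes were called about as often as all genes, 33.3% against 35.1%. Of 18 tested, 6 were lower in papilla and none higher, with a median of -0.394. The 33.3% were thus all lower, where 19% of all genes were lower and 16.1% higher. The number lower was 3 without the day 43 papilla array, and 2 without the day 69 papilla array or the day 56 bulge array. The ribonucleotide reductase gene Rrm2 (-2.33 ± 0.41, adjusted p = 0.00107) and the primase gene Prim1 (-1.60 ± 0.26) led. Cell cycle inhibitors differed by member. Cdkn1c, which encodes p57, stood at 9.59, 7.41 and 8.60 in papilla and 5.43, 5.48 and 5.44 in bulge, a difference of 3.08 ± 0.42 (adjusted p = 0.000165), with 2.49 and 3.70 without the day 43 or day 56 papilla array. The growth arrest gene Gadd45g (4.02 ± 0.34) and the cyclin Ccnd3 (2.40 ± 0.26) were also higher in papilla. Cdkn2b, which encodes p15 and is a known TGF-beta target, was lower, 5.49, 4.16 and 5.03 against 7.87, 8.10 and 7.44 (-2.91 ± 0.40), and so were Myc (-2.36 ± 0.43) and Btg2 (-1.65 ± 0.35). Myc stood at 4.88, 6.50 and 7.46 in papilla and at 8.64, 8.69 and 8.60 in bulge, and its difference was -1.66 without the day 43 papilla array and -3.00 without that of day 69.

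**Figure D4:**
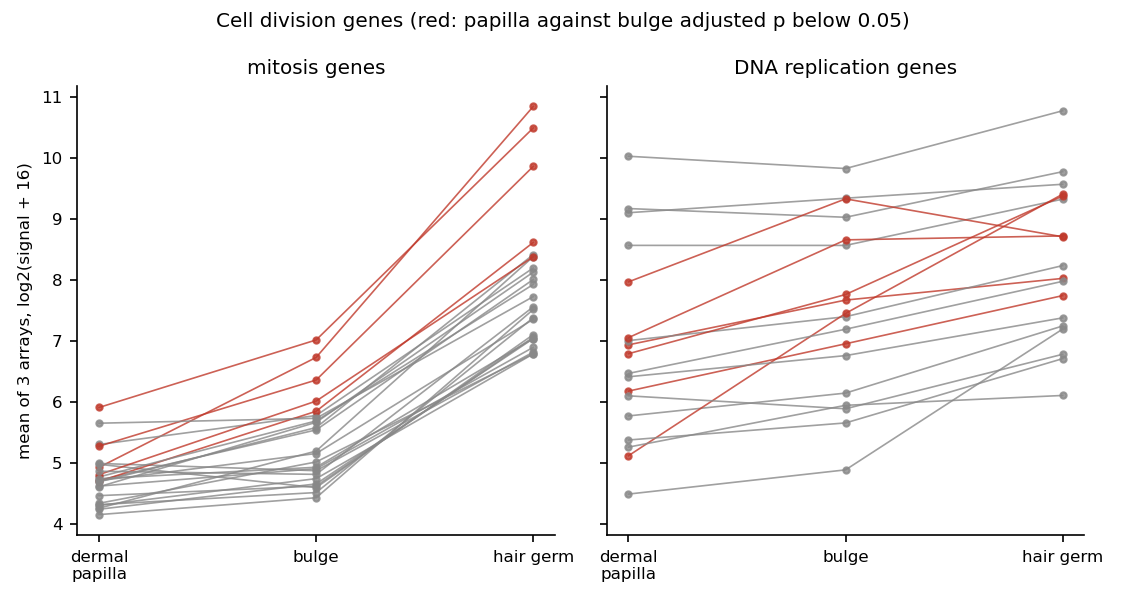
Mean level over 3 arrays, as log2(signal + 16), of 24 mitosis genes (left) and 18 DNA replication genes (right) in dermal papilla, bulge and hair germ; each line is a gene, red where papilla and bulge differed at an adjusted p below 0.05. Mitosis medians are 4.72 in papilla, 5.18 in bulge and 7.64 in hair germ, and 15 of these genes were tested only because hair germ was high.

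Oxidative phosphorylation genes were called at 12%, below the 35.1% of all genes, immediate early genes at 30%, near that share, and glycolysis genes at 60%. Every oxidative phosphorylation and immediate early call was lower in papilla, where 19% of all genes were lower. Of 25 oxidative phosphorylation genes 3 were lower in papilla and none higher, and for 21 the 95% interval lay within 1 unit of 0. The cytochrome oxidase gene Cox4i1 stood at 12.01, 12.01 and 12.20 in papilla and 11.59, 11.91 and 11.54 in bulge (interval -0.10 to 0.89), and was called higher in papilla only after quantile normalization. The number lower was 0 without the day 43 or day 56 bulge array, and 1 without any 1 of the other papilla or bulge arrays. Fos, an early response factor, stood at 12.99, 12.39 and 12.64 in papilla and 12.52, 12.60 and 12.43 in bulge (interval -0.44 to 0.74), and the intervals were -0.42 to 0.63 for Egr1 and -0.70 to 0.31 for Jun. Of 20 immediate early genes 6 were lower in papilla, led by Atf3 (-2.90 ± 0.45, with -2.17 and -3.52 without the day 43 or day 69 papilla array) and Myc. Of 15 glycolysis genes 7 were lower in papilla and 2 higher. Aldoc (-3.14 ± 0.38), the pyruvate dehydrogenase kinase Pdk1 (-2.97 ± 0.26), Pfkp (-2.19 ± 0.28) and Hk2 (-2.07 ± 0.36) were lower, and Ldhb (1.07 ± 0.22) was higher.

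Differences were also set side by side by day. The median absolute difference of the called genes was 1.5 on each of the 3 days. Genes were called for differences shared by the days, so these equal medians cannot show that differences held through telogen. Between days 43 and 69 the difference of 251 called genes grew by at least 1 unit and that of 203 shrank by as much. These are changes between single arrays, with no test. Among the 5 that grew most, Myl9, a myosin light chain, stood at 7.14, 8.27 and 10.07 in papilla on the 3 days against 6.18, 6.12 and 4.66 in bulge, and its call was lost without the day 69 bulge array. The day 69 values carry much of the Myl9 difference, 2.84 in all and 1.61 without the day 69 papilla array. Islr, a secreted fibroblast protein gene, stood at 7.11, 8.83 and 9.90 against 5.12, 4.60 and 4.36. In Krt15 and Trp63 the papilla values were lower after day 43 (8.37, 6.20 and 4.98 for Trp63), and in the prostaglandin transporter gene Slco2a1 papilla was lowest, at 4.79, and bulge highest, at 9.35, on day 69. Papilla levels of Lef1 (6.09, 6.81 and 8.86), Wnt5a (8.03, 8.01 and 10.19), Rspo2 (8.57, 9.65 and 10.19), Fgf7 (7.97, 9.23 and 9.89) and Mdk (8.93, 9.93 and 11.01) were highest on day 69. Bulge levels of these genes stayed between 4.05 and 5.34. Among the 5 that shrank most, Inhbb in papilla was highest on day 43, and Atf3 in papilla moved from 7.01 to 9.76 with bulge at 11.66, 10.78 and 11.31. Pdlim3 dropped in bulge, 9.55, 9.40 and 7.97, and Nrep and Lratd1 were the others. The call of Nrep was lost without the day 43 array of either population or the day 56 papilla array. The day 43 papilla array also held the epithelial RNA described above.

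**Figure D5:**
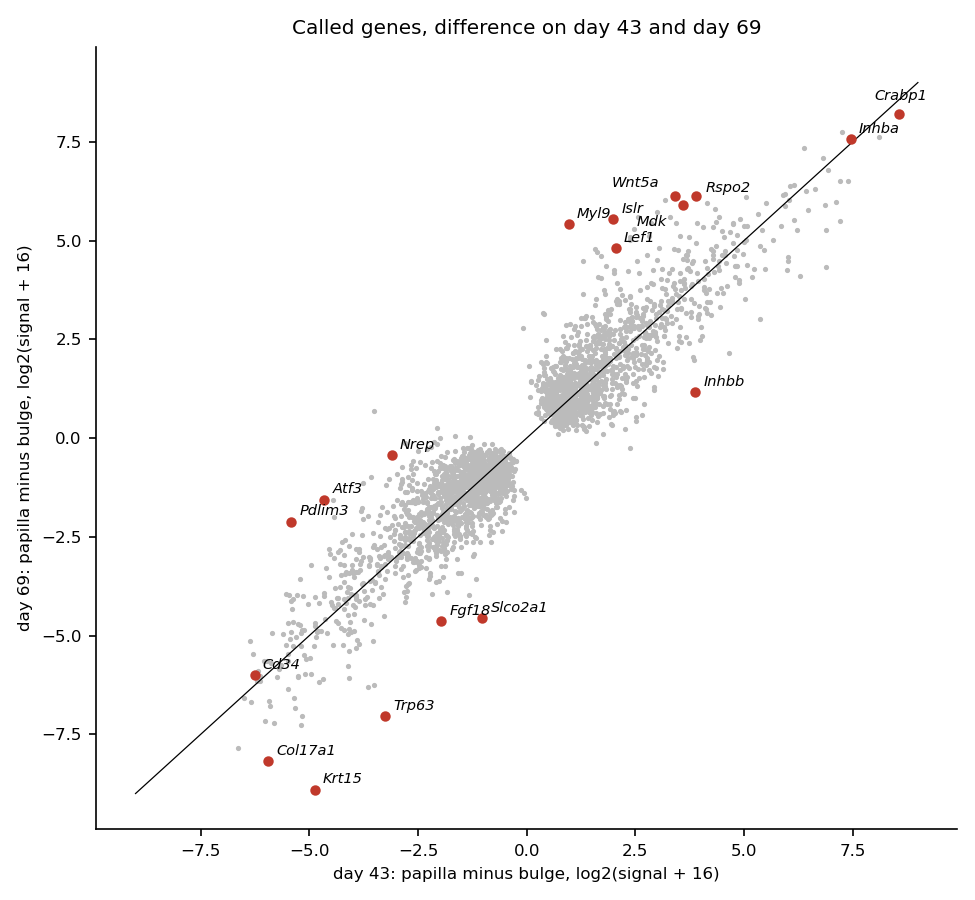
Difference between dermal papilla and bulge on day 43 (horizontal) and day 69 (vertical), in log2(signal + 16), for the 2740 called genes; the line marks equal differences and named genes are in red. Inhba, Crabp1 and Cd34 lie near the line, Krt15 and Trp63 lie below it with larger differences on day 69, and Atf3, Pdlim3 and Inhbb lie nearer to 0 on day 69.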

How the data were processed

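RNA from sorted cells, amplified in 2 rounds per the labels' protocols, was measured on 9 arrays. The authors deposited linear MAS5 intensity values from GCOS, per the submitters' processing notes; versions and scaling target are not given in the sources used here. From these, log2(signal + 16) was taken without further scaling. Of 22690 probe sets, 64 controls were set aside and 12801 sets lying above their array's median in at least 3 of 9 arrays were kept. The supplied annotation gave 20380 sets with 1 gene, 691 with several and 1555 with none, and 20364 matched the current gene table. Of the sets kept, those with 1 gene were used. The brightest set stood for a gene, which gave 7796 of 12394 genes. With R 4.3.3 and limma 3.58.1, population and day were fitted additively to all 9 arrays (4 residual degrees of freedom, eBayes with trend). In the main fit, hair germ arrays changed the spread estimate and no papilla-bulge difference. They also counted in the filter and in the choice of the brightest set. Two-sided p-values were adjusted by Benjamini-Hochberg over all genes and called below 0.05; 3428 genes had an unadjusted p below that. The fit was tested on simulated data with 200 changed genes.

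The genes, 54 lists and 26 pairs were chosen with earlier results of these data known. Genes named were the 12 largest differences each way with 1 sign on all days, up to 6 called members of a list (or the 2 largest where none was called), tested pairs, sort genes and markers, the 5 differences that grew and the 5 that shrank most, and up to 8 bright list members with an interval within 1 unit of 0; others named beside them were chosen after their values were seen. Alternatives changed the offset, scaling, filter, probe set rule, day term, variance trend and the arrays included. The number of arrays limits the precision.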

Additional observations from a re-analysis of the deposited data

How the results depend on the processing

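Of the 2740 genes called, none was called in the opposite direction under any alternative run, and 1 had the opposite sign with no filter. Of 303 genes, those of the naming rule and those named beside them, 254 kept their side of the threshold and their sign in every fit that tested them, and of 47 list counts of 4 or more 25 stayed within 1.5 times. The number of genes called was 2686 with an offset of 1, 2676 with 64, 2772 after quantile normalization, 2748 after median centring, 2742 with no filter, 2788 with the mean over probe sets and 2672 without a variance trend. Leaving out 1 array gave 2031 to 3053 calls, and the 6 papilla and bulge arrays alone gave 3181 with 2 residual degrees of freedom. Requiring a signal above the median in 6 of 9 arrays removes genes bright only in papilla by construction, and left 785 genes higher in papilla and 6 opposite pairs. With no replicate block, that is without the day term, 2688 genes were called, 2616 of them in common. Papilla and bulge deviations of the same day correlated at 0.0964, 0.0296 and 0.0921 across genes, so the day number does not show paired mice. Without the 3 arrays of Gapdh ratio above 6, an alternative chosen after seeing the data, 2574 genes were called. Of 2697 genes with several kept probe sets, 717 had at least 1 of opposite sign, none of them a gene given a value in the text. Genes whose growth or shrinkage over the days was described moved by construction when a day 43 or day 69 array was left out. Small differences of dim genes are limited by signal near background.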

Other observations

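Hox and guidance genes were split between papilla and bulge. Of 16 Hox genes tested 8 were lower in papilla and 3 higher, with a median of -0.977. Hoxb6 stood at 4.56, 5.29 and 5.48 in papilla and 8.33, 8.61 and 8.49 in bulge (-3.37 ± 0.27), and Hoxc13, known from hair differentiation, differed by -2.56 ± 0.34. Hoxc4 (2.64 ± 0.28), Hoxc9 (2.25 ± 0.32) and Hoxd9 (1.11 ± 0.28) were higher in papilla, though the call of Hoxd9 was lost with an offset of 1, without the day 56 papilla array or without the day 56 bulge array. Of 17 semaphorin, ephrin and other guidance genes 4 were higher in papilla, 7 lower and 6 not called, with a median of -0.543. The guidance ligand Slit2 stood at 10.58, 10.81 and 10.23 in papilla and 4.44, 4.54 and 4.71 in bulge (5.98 ± 0.26), and its receptor Robo1 was higher in papilla too (3.84 ± 0.29). Sema3e (-4.96 ± 0.32), the receptor Plxna2 (-4.98 ± 0.35) and the ephrin Efnb2 (-4.66 ± 0.26) were lower in papilla. The potassium channel gene Kcnk2 stood at 4.60, 4.46 and 4.37 in papilla, 10.48, 10.65 and 10.05 in bulge and 5.49 ± 0.70 in hair germ (mean ± SD of 3 arrays).

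Of 9 chemokine and cytokine genes 4 were lower in papilla, 1 was higher and 4 were not called. Cxcl14 (-4.39 ± 0.26), Cxcl16 (-2.36 ± 0.26) Cxcl12 (-2.07 ± 0.35) and the alarmin gene Il33 (-1.51 ± 0.27) were the lower ones. Cxcl1 was higher (0.92 ± 0.32, adjusted p = 0.0481), a call lost under 12 alternatives, the fit with no replicate block and any 1 bulge array left out among them. Of 17 lipid synthesis genes 7 were higher in papilla, 1 was lower and 9 were not called. The sebocyte markers Mc5r (2.13), Scd1 (1.98) and Fasn (0.87), the 3 tested of 7 listed, were also higher in papilla. Scd1 is a member of both lists, so the lists are not separate observations. The summed signal of the 3 sebocyte markers was 2087, 1084 and 2631 in papilla and 514.1 to 641.4 in bulge. It was lowest in papilla on day 56, as was Scd2, and its part in these differences was not tested. The Fasn call was lost without the day 43 or day 69 array of either population. The desaturase gene Scd2 stood at 9.92 to 11.16 in papilla and 6.95, 6.86 and 5.82 in bulge (4.15 ± 0.43, with 4.81 and 3.56 without the day 56 or day 69 papilla array), and Cyp51, a sterol synthesis enzyme, differed by 2.16 ± 0.26. Fabp4, a lipid carrier of fat cells, stood at 7.83, 8.80 and 9.93 in papilla and 4.12, 4.43 and 5.19 in bulge, and its papilla level was highest on day 69. Vim, the mesenchymal intermediate filament, differed by 4.42 ± 0.38, and the actin-linked genes Fhl1 (-2.62 ± 0.28) and Actn1 (-2.23 ± 0.23) were lower in papilla. Of 14 clock genes, Bhlhe40 had the largest difference (3.63 ± 0.32), and sampling hour is not given in the labels.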
